A study of Danio rerio with 14 samples.

Results

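The genes that build the mitochondrial respiratory chain and the ATP synthase were examined in zebrafish gastrulae after exposure to ethanol. The members were taken from the annotation of the array as every gene with a symbol starting in nduf (complex I and its assembly factors), sdha to sdhd (complex II), uqcr, or equal to cyc1 (complex III), cox followed by a digit (complex IV and its assembly factors) or atp5 (ATP synthase). This rule found 91 genes, represented by 99 probe sets, among the 8793 named genes on the array. Each gene was represented by its probe set of highest mean signal. By symbol, 33 of the genes were complex I subunits, 6 complex I assembly factors, 7 complex II genes, 8 complex III genes, 14 complex IV subunits, 5 complex IV assembly factors and 18 ATP synthase genes. The complex II genes include the assembly factors sdhaf2, sdhaf3 and sdhaf4. The groups follow symbols alone, also for ndufa4a and ndufa4b, and need not match the complex that holds the protein. No signal was used to choose the genes, other than to pick 1 probe set of a gene that had several.

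The respiratory chain passes electrons from NADH and succinate through coenzyme Q and cytochrome c to oxygen and pumps protons out of the mitochondrial matrix, and the ATP synthase lets those protons return while it makes ATP. Most subunits are encoded in the nucleus and imported, a small number are encoded in mitochondrial DNA, and the genes studied here are all nuclear. The early zebrafish embryo inherits its mitochondria and a large store of the messages for these proteins from the egg, and builds much of its own supply after zygotic transcription begins.

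Ethanol treated embryos of the TL strain were kept in medium with 100 mM ethanol (0.6% by volume) from 2 hpf (hours post fertilization) to 8 hpf, that is for 6 h, and control embryos were kept in the same medium without ethanol. At 8 hpf, during gastrulation, RNA was taken from whole embryos in pools of about 20. The study reports slower epiboly in ethanol treated embryos, so the pools were matched for hours and need not have been for stage. The part of a difference in stage in the values below was not tested. There were 7 ethanol pools and 7 control pools, numbered 1 to 6 and 8, and an ethanol pool and a control pool of the same number came from the same embryo batch and form a pair. Each pool was measured on 1 array, so that the number of arrays limits the precision. Ranges and standard deviations are over the pools of a treatment and so hold the spread between batches of embryos. Standard errors and intervals concern the difference within pairs, with the levels of the batches taken out. Differences between pools and between arrays cannot be told apart. Since the pools hold whole embryos, fewer cells of a type and less RNA per cell cannot be told apart.

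Signals are MAS5 values, which are comparable between arrays for a given probe set but not between probe sets. Genes entered the test where 3 or more ethanol arrays, or 3 or more control arrays, of the 7 each had a signal of 200 or above. Of the 91 genes, 87 passed, and cox4i1l, cox4i2, ndufa4b and sdhaf3 did not. The log2 change is ethanol minus control over the 7 pairs, with its standard error (SE), fitted in limma while taking out the differences between embryo batches. Genes with an adjusted p (Benjamini-Hochberg, over all 9240 probe sets tested) no higher than 0.10 were called higher or lower.

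Across the arrays, the median signal was 219 to 296 in ethanol pools and 214 to 282 in control pools. Of the markers of gastrula germ layers and the organizer, 29 of 30 were tested, with 2 called higher (sox19a and pou5f3) and 0 lower. The change was above 0 for 18 of the 29 and below 0 for 11, with a median of 0.06. An unadjusted p under 0.05 in limma was found for 6 that were higher and 3 that were lower in ethanol pools. The summed signal of these markers was 137637 to 220108 in ethanol pools, against 131782 to 167327 in control pools. The means of sox19a were 14790 and 10082, and those of pou5f3 27157 and 21560, in ethanol and control pools. Of the genes listed as markers of later differentiated cell types 11 of 15 did not reach the minimum. Of the 4 tested, 2 were called lower (neurog1 and actc1a) and 0 higher. Both had signal in control pools at 8 hpf, with means of 475 and 7033. The listing alone does not show that they mark differentiated cells at this stage. Markers of the yolk syncytial layer and yolk were called lower for 17 of 26 genes tested and higher for 0. Of all 9240 probe sets tested, 185 were called lower and 218 higher. The marker lists were chosen with earlier results of these data known, so that their counts are descriptions and not independent evidence. The summed signal of the yolk markers was 166608 to 267914 in ethanol pools, against 221431 to 299656 in control pools. The summed signal of enveloping layer markers was 309296 to 371600 in ethanol pools, against 307089 to 336114 in control pools, although 12 of the 20 tested had a change below 0, with 3 called lower (anxa1a, anxa1b and evplb) and 1 higher (krt97, with a mean of 65784 in ethanol pools and 50507 in control pools). That of the genes listed for later cell types was 1578 to 10618 in ethanol pools, against 4609 to 14279 in control pools. Most of it came from actc1a, with a mean of 4594 in ethanol pools and 7033 in control pools. All these sums add signals that are not comparable between probe sets, so that bright probe sets weigh most in them. No marker was listed at 0. The log2 ratio of the 3′ to the 5′ GAPDH control probe sets, a sign of RNA or labelling quality, was higher in the ethanol pool of 6 of 7 pairs, with differences from -0.75 to 5.79. However, 16 of the 28 control signals behind it were under 200, and the 5.79, in pair 8, rests on a 3′ signal of 9.40 in the control pool. The same ratio for acta1 was higher in 5 of 7 pairs, with 22 of 28 signals under 200. The study's methods report high RNA integrity for all samples and labelling of all arrays in 1 batch. The part of these differences in the values below was not tested.

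The levels of respiratory chain and ATP synthase messages changed little with ethanol at 8 hpf. Of the 87 genes tested, 2 rose and 0 fell. Both that rose, ndufa3 and ndufab1b, encode complex I subunits, which made up 32 of the 87 genes tested. The share called was 2.30% among these genes, against 4.36% of all probe sets in either direction and 2.36% of all probe sets in the direction of a rise, so that the count of rises was close to that of the array as a whole. The fitted changes were above 0 for 50 genes and below 0 for 37, with a median of 0.01, against -0.00 over all probe sets tested. The count above 0 was 41 without pair 6 and 42 without pair 8, where the majority was thus below 0. They ran from -0.32 in cox10 to 0.50 in cox14, with quartiles of -0.05 and 0.12.

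The intervals set a limit on what could have gone unseen in the main fit. All intervals here and below use variances moderated by eBayes along a trend with the mean signal. The counts of intervals within 1.5-fold were not made for the other settings. For 80 of the 87 genes (92.0%), the 95% confidence interval of the change lay wholly within 1.5-fold in either direction, against 63.0% of all probe sets tested. The median SE was 0.09 for these genes and 0.14 for all probe sets. The 2 sets were not matched for signal, whose median was 3280 for these genes and 711 for all probe sets tested. This holds for the later comparisons with all probe sets too, and the part of signal in them was not tested. The interval reached past 1.5-fold for ndufaf5, ndufaf6, ndufaf8, cox6b1, cox14, atp5mea and atp5if1b. For these 7 genes, a change of that size was within the error.

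**Figure D1:**
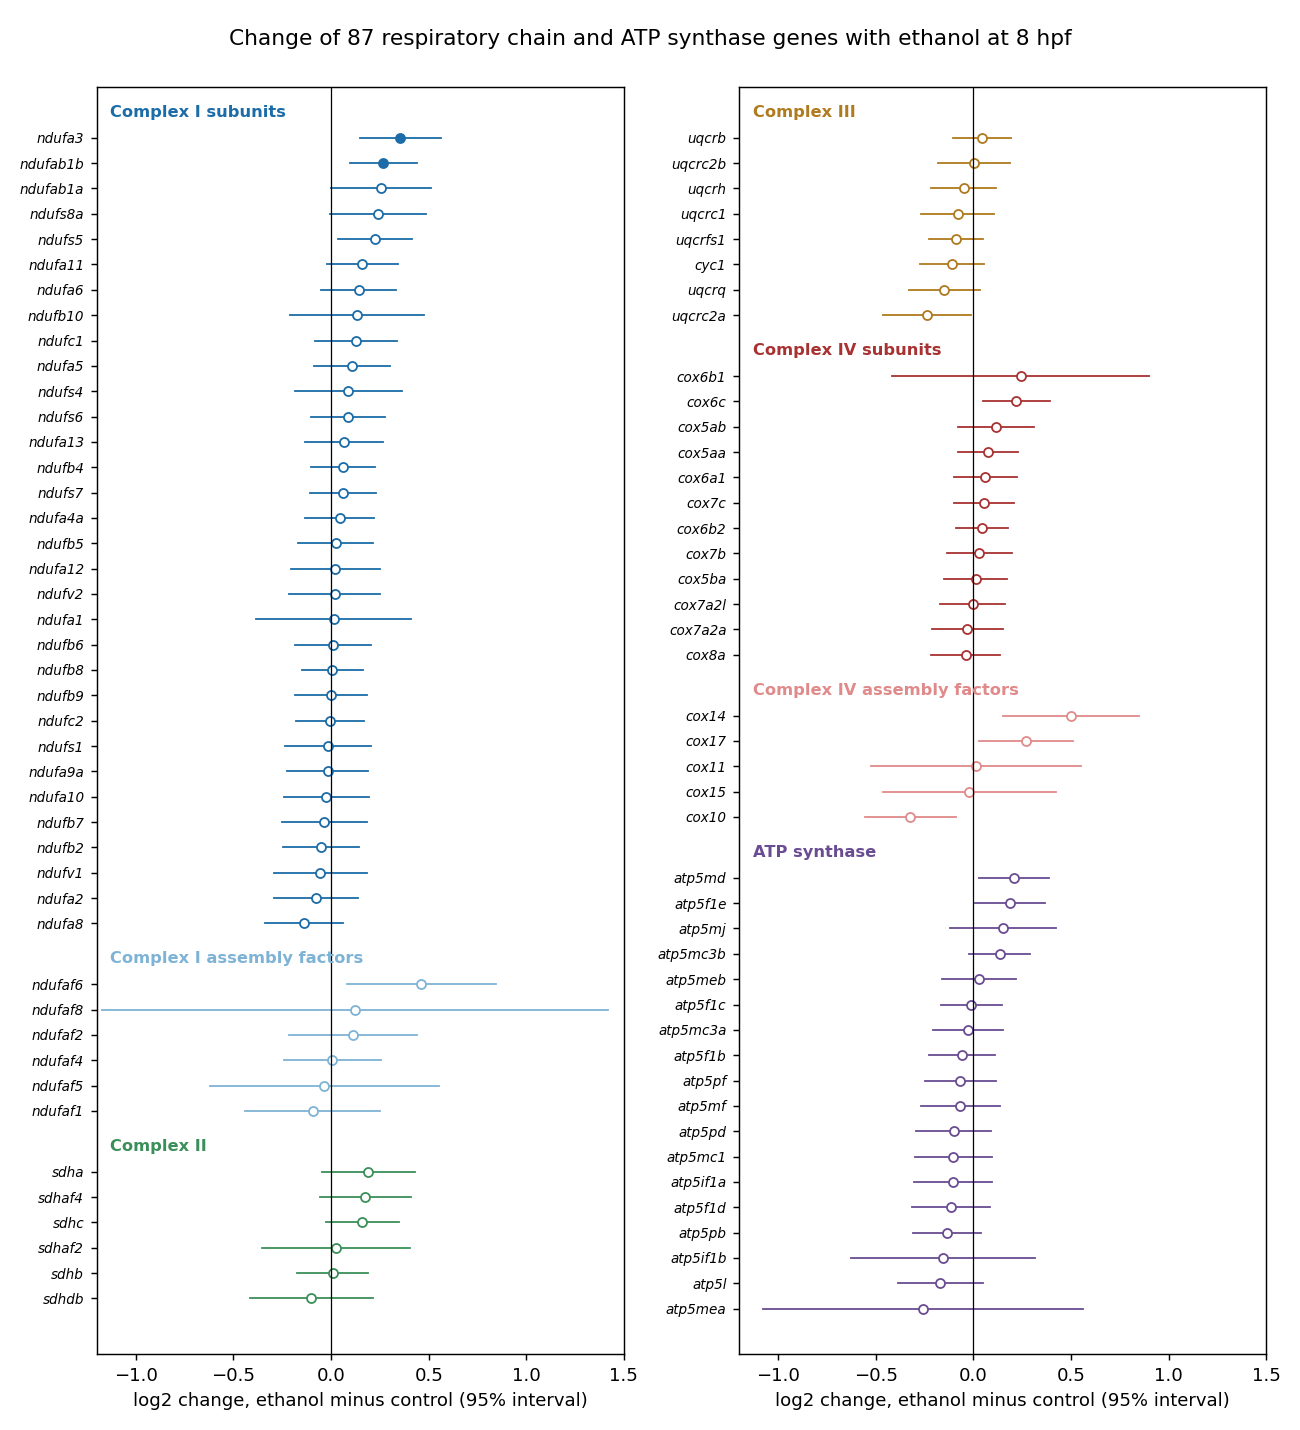
Log2 change (x axis, ethanol minus control) of the 87 tested genes, grouped by complex and sorted within a group. Points are the fitted changes over 7 pairs, lines their 95% confidence intervals, and filled points the 2 genes called higher (ndufa3 and ndufab1b). Most intervals cross 0 and are short, and the widest belong to ndufaf8, atp5mea and cox6b1.

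Complex I takes electrons from NADH and is the largest complex of the chain. Of its 32 subunit genes tested, 2 rose (6.25%, against 2.36% of all probe sets), 0 fell and 30 were not called. The fitted change was above 0 for 22 of them (68.8%, against 49.8% of all probe sets), with a median of 0.03. In ndufa3, which encodes an accessory subunit, the signal was 3032 at the lowest, 3474 at the median and 4731 at the highest in ethanol pools, against 2010, 3034 and 3262 in control pools. The ethanol pool was the higher one in 6 of 7 pairs, and the lower one by a small margin in pair 2, while the ranges of the treatments overlapped. The log2 change was 0.36 (SE 0.10, adjusted p = 0.0662, limma), a 1.28-fold rise with an interval of 1.11 to 1.48. The call was lost in 8 of 18 alternative settings, whose adjusted p ran from 0.0419 to 0.490. It was lost without pair 3, 6 or 8 (adjusted p = 0.185, 0.189 and 0.171), with batch as a random block (0.132), with no block (0.490), without a trend (0.247), with no moderation (0.280) and at a threshold of 0.05.

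The gene ndufab1b encodes a mitochondrial acyl carrier protein, which is both an accessory subunit of complex I and a carrier in mitochondrial fatty acid synthesis. Its signal was 3813 at the lowest, 4363 at the median and 5105 at the highest in ethanol pools, against 3161, 3596 and 4330 in control pools. It was higher in the ethanol pool of all 7 pairs, with differences from 0.08 in pair 8 to 0.61 in pair 6, and the ranges overlapped. The log2 change was 0.27 (SE 0.08, adjusted p = 0.0979, limma), a 1.20-fold rise with an interval of 1.07 to 1.36. The adjusted p lay next to the threshold, and it was above it with any 1 of the 7 pairs left out (0.119 to 0.270) and in 13 of 18 alternatives (0.0816 to 0.496 over all of them). The duplicate of this gene, ndufab1a, was higher in 6 of 7 pairs but was not called, with a log2 change of 0.25 (SE 0.12, adjusted p = 0.337). The other 2 probe sets of ndufab1a gave 0.33 (SE 0.12, adjusted p = 0.174) and 0.21 (SE 0.12, adjusted p = 0.442).

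Among the complex I subunits not called, ndufs5, an accessory subunit, had a change of 0.22 (SE 0.09, adjusted p = 0.236) and ndufs8a, an iron-sulfur subunit of the electron path, one of 0.24 (SE 0.12, adjusted p = 0.350). The other subunits that carry electrons lay close to 0, with ndufs1 at -0.02 (interval -0.24 to 0.21), ndufv1 at -0.05 (-0.29 to 0.18), ndufv2 at 0.02 (-0.22 to 0.25) and ndufs7 at 0.06 (-0.11 to 0.23). The lowest change among the subunits was that of ndufa8, an accessory subunit, at -0.14 (SE 0.10, adjusted p = 0.540). Its signal was 2706, 3400 and 4401 at the lowest, median and highest in ethanol pools, against 3189, 3785 and 4561 in control pools, and the ranges overlapped over most of their length. The intervals of all 32 subunits lay within 1.5-fold.

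The 6 complex I assembly factors help the complex form without being part of it. They gave 0 calls in either direction, against 4.36% of all probe sets, and had a median of 0.06. An unadjusted p under 0.05 in limma was found for 1, ndufaf6 (16.7%, against 15.0% of all probe sets). In ndufaf6 the signal was 433 at the lowest, 538 at the median and 894 at the highest in ethanol pools, against 196, 431 and 563 in control pools. The ethanol pool was higher in 6 of 7 pairs, by a margin from 0.01 in pair 5 to 1.46 in pair 8, and the change was 0.46 (SE 0.18, adjusted p = 0.218). The lowest change was that of ndufaf1, at -0.09 (SE 0.17, adjusted p = 0.846), and its other tested probe set gave 0.13 (SE 0.22). The widest interval of the 87 genes was that of ndufaf8 (-1.17 to 1.42), whose signals were as low as 7.47 in ethanol pools and 11.2 in control pools, both in batch 6.

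Complex II, or succinate dehydrogenase, belongs both to the TCA cycle and to the chain. None of its 6 tested genes was called in either direction, against 4.36% of all probe sets. An unadjusted p under 0.05 in limma was found for 0 of them, against 15.0% of all probe sets. Of the 6, 5 had a fitted change above 0, and the median was 0.09. These counts include the assembly factors sdhaf2 (0.02) and sdhaf4 (0.17). The catalytic flavoprotein gene sdha had a signal of 1313, 1524 and 1649 at the lowest, median and highest in ethanol pools, against 944, 1362 and 1503 in control pools, with a change of 0.19 (SE 0.11, adjusted p = 0.468). The lowest control value came from batch 1, and the pair difference there was 0.81, whereas the other 6 pairs lay between -0.19 and 0.24. The iron-sulfur subunit gene sdhb gave 0.01 (interval -0.17 to 0.19). Of the genes for the membrane anchors, sdhc had a change of 0.16 (SE 0.09, adjusted p = 0.428) and sdhdb of -0.10 (SE 0.15, adjusted p = 0.810), which was -0.0079 without pair 1 and -0.0098 without pair 5. All intervals in this complex lay within 1.5-fold.

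Complex III hands electrons from coenzyme Q to cytochrome c. None of its 8 genes was called in either direction, against 4.36% of all probe sets. The fitted change was below 0 for 6 of the 8, and the median was -0.08. The core protein gene uqcrc2a had the lowest change, -0.24 (SE 0.11, unadjusted p = 0.0388, adjusted p = 0.298, limma), and was lower in the ethanol pool of 6 of 7 pairs. Its signals ran from 671 to 1904, with a median of 1209, in ethanol pools, and from 985 to 1896, with a median of 1274, in control pools. The spread within each treatment was wide against the difference, and most of it was shared by the 2 pools of a batch. The other uqcrc2a probe set was too dim to be tested. It was higher in the ethanol pool of 6 of 7 pairs, with means of 102 in ethanol pools and 82.0 in control pools. The duplicate, uqcrc2b, had a change of 0.00 (interval -0.18 to 0.19); the difference between the duplicates was not tested. The Rieske iron-sulfur protein gene uqcrfs1 gave -0.09 (SE 0.07) and was lower in 6 of 7 pairs, the cytochrome c1 gene cyc1 gave -0.11 (SE 0.08) and was lower in 5 of 7, and uqcrb, a small subunit next to the coenzyme Q site, gave 0.04 (SE 0.07).

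**Figure D2:**
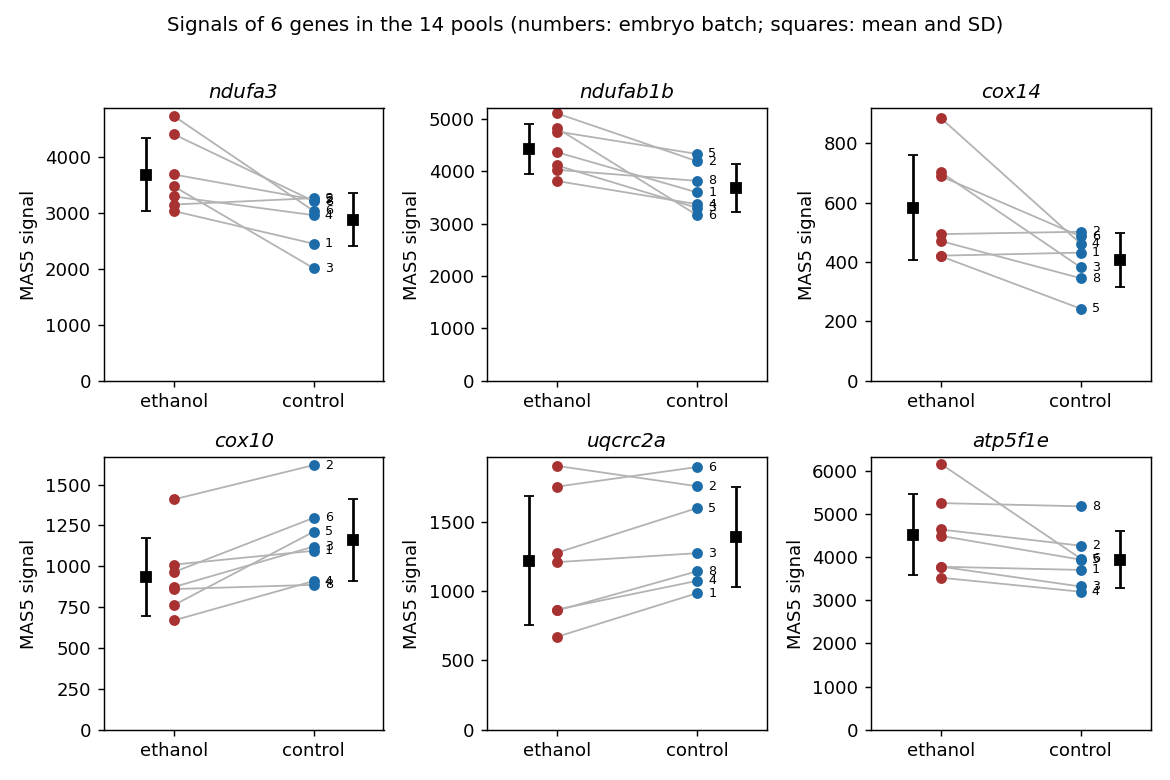
MAS5 signal (y axis) of 6 genes in ethanol pools (left, red) and control pools (right, blue), with a line joining the pools of 1 embryo batch, whose number stands at the right, and squares with bars for the mean and SD of 7 pools. The signal of ndufab1b and of atp5f1e is higher, and that of cox10 lower, in the ethanol pool of every pair, and the ranges of the treatments overlap in all 6 genes.

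Complex IV, cytochrome c oxidase, gives the electrons to oxygen. Of its 12 tested subunit genes, 0 were called in either direction, against 4.36% of all probe sets. An unadjusted p under 0.05 in limma was found for 1, cox6c (8.33%, against 15.0% of all probe sets). The fitted change was above 0 for 9 of the 12, with a median of 0.05. By size the first was cox6b1, with 0.24 (SE 0.31, adjusted p = 0.777), but its signals lay at 159 to 328 in ethanol pools and 70.7 to 320 in control pools and its interval ran from -0.41 to 0.90. The change of cox6c was 0.22 (SE 0.08, adjusted p = 0.197), with 8542, 9996 and 15044 at the lowest, median and highest in ethanol pools, against 8196, 9538 and 10328 in control pools. The ethanol pool was the higher one in 6 of 7 pairs and the ranges overlapped. The lowest change was that of cox8a, at -0.04 (SE 0.08). The duplicates cox5aa and cox5ab gave 0.08 (SE 0.07) and 0.11 (SE 0.09).

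Both ends of the distribution came from complex IV assembly factors. The largest change of the 87 genes was that of cox14, which encodes a small protein involved in the synthesis and assembly of the first core subunit, at 0.50 (SE 0.17, unadjusted p = 0.00701, adjusted p = 0.135, limma). Its signal was 419 at the lowest, 493 at the median and 885 at the highest in ethanol pools, against 242, 431 and 502 in control pools. In 5 of 7 pairs the ethanol pool was higher, by 0.45 to 0.94, and in pairs 1 and 2 the pools were nearly level (-0.03 and -0.02). It was called with pair 1 or pair 2 left out (adjusted p = 0.0728 and 0.0972, limma).

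The lowest change was that of cox10, the enzyme that makes heme O on the way to the heme A of the complex, at -0.32 (SE 0.11, unadjusted p = 0.00937, adjusted p = 0.156, limma). Its signal was 668, 873 and 1409 at the lowest, median and highest in ethanol pools, against 886, 1121 and 1619 in control pools. It was lower in the ethanol pool of all 7 pairs, by as little as 0.04 in pair 8 and as much as 0.67 in pair 5, but did not pass the test. The other cox10 probe set was too dim to be tested. It was higher in the ethanol pool of 6 of 7 pairs, with means of 146 in ethanol pools and 99.8 in control pools. The next enzyme of heme A synthesis, cox15, lay at -0.02 (interval -0.46 to 0.42), and the copper delivery genes cox11 and cox17 at 0.01 (-0.53 to 0.55) and 0.27 (0.03 to 0.51, adjusted p = 0.260, limma).

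The ATP synthase gave 0 calls among 18 genes in either direction, against 4.36% of all probe sets. The fitted change was below 0 for 13 of the 18, with a median of -0.07. In limma, 2 genes had an unadjusted p under 0.05, both with a change above 0 (11.1%, against 15.0% of all probe sets). These were atp5f1e, the epsilon subunit of the catalytic head, at 0.19 (SE 0.09, adjusted p = 0.301, limma), and atp5md, a small membrane subunit, at 0.21 (SE 0.09, adjusted p = 0.241, limma), which was 0.14 without pair 6 (adjusted p = 0.514). The signal of atp5f1e was 3524, 4494 and 6165 at the lowest, median and highest in ethanol pools, against 3199, 3943 and 5179 in control pools. It was higher in the ethanol pool of all 7 pairs, by 0.02 to 0.19 in 6 of them and by 0.64 in pair 6.

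The catalytic beta subunit gene atp5f1b gave -0.06 (interval -0.23 to 0.11) and the peripheral stalk genes atp5pb and atp5pd gave -0.14 (SE 0.08, adjusted p = 0.472) and -0.10 (SE 0.09). The ring subunit genes atp5mc1, atp5mc3a and atp5mc3b lay at -0.10, -0.03 and 0.14, and the genes of the inhibitory factor, atp5if1a and atp5if1b, at -0.10 and -0.15. The lowest change, -0.26 in atp5mea, had an SE of 0.39: its signals ran from 36.4 to 754 in ethanol pools and from 24.0 to 715 in control pools, and the pair differences from -1.90 to 1.79. Its duplicate atp5meb gave 0.03 (SE 0.09).

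Counted without adjustment, 11 of the 87 genes had a p under 0.05 in limma, a share of 12.6%, against 15.0% of all probe sets tested. Of the 11, 9 were higher (10.3% of the genes, against 7.51% of all probe sets) and 2, cox10 and uqcrc2a, were lower (2.30%, against 7.45%). A change of the same direction in all 7 pairs was found in 3 genes (ndufab1b and atp5f1e higher, cox10 lower), against 6.11% of all probe sets. The ranges of the ethanol and control signals overlapped in all 87 genes, that is 0 were apart, against 0.357% of all probe sets.

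The pairs differed in the direction of the chain as a whole. The median difference over the 87 genes was -0.12, -0.03, 0.01, 0.06, -0.09, 0.25 and 0.10 in pairs 1, 2, 3, 4, 5, 6 and 8, while the median over all probe sets stayed between -0.03 and 0.04. In pair 6, 69 of the 87 genes were higher in the ethanol pool, and in pair 8, 62 were. In pairs 1 and 5, by contrast, 58 and 57 were lower in the ethanol pool. For the ATP synthase genes the median went to -0.28 in pair 5 and -0.22 in pair 1, and was 0.29 in pair 6. For the complex I subunits it was -0.08 in pair 1 and 0.26 in pair 6, and for the complex IV subunits -0.12 and 0.32. Complex I assembly factors did not share this order, with -0.11 in pair 1 and -0.14 in pair 6.

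Over the 7 pair differences, the correlation between 2 members had a median of 0.27 and was above 0 for 69.1% of the 3741 combinations, against a median of 0.0015 and 50.1% over the combinations of all probe sets tested. These are descriptions over points that share their arrays and their scaling. Over the pools of a treatment, the coefficient of variation of the signal had a median of 18.03% in ethanol pools and 15.6% in control pools. It was larger in ethanol pools for 55 of the 87 genes (63.2%), against 52.5% of all probe sets tested.

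**Figure D3:**
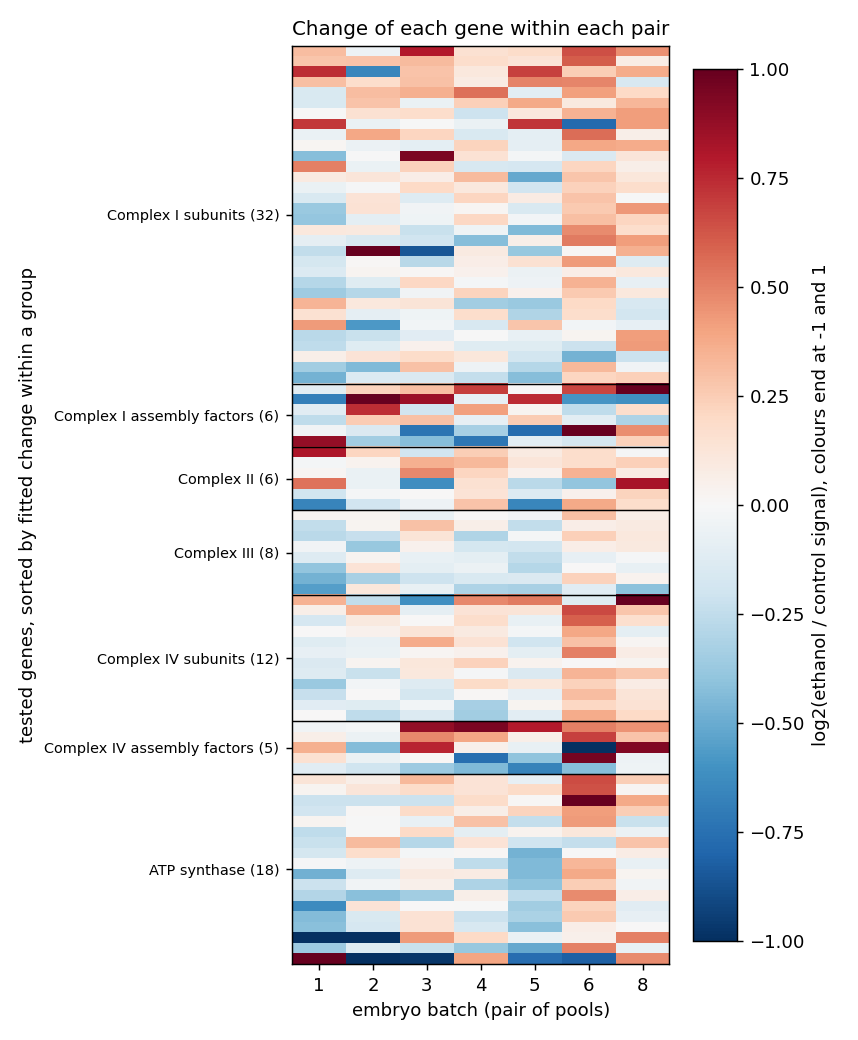
Log2 ratio of the ethanol to the control signal for the 87 tested genes (rows, grouped by complex and sorted by fitted change) in each of the 7 pairs (columns, numbered by embryo batch). Red marks a higher and blue a lower signal in the ethanol pool; pair 6 is red for 69 of the 87 genes and pairs 1 and 5 are blue for 58 and 57.

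More of these genes were called between embryo batches than between treatments. The moderated F test for batch, from the same fit, called 30 of the 87 genes (34.5%), against 22.3% of all probe sets. It called 9 of 18 ATP synthase genes, 5 of 8 complex III genes, 5 of 12 complex IV subunits and 9 of 32 complex I subunits, but 1 of 6 complex I assembly factors, 1 of 5 complex IV assembly factors and 0 of 6 complex II genes. The complex I assembly factor was ndufaf8, with signals of 7.47 and 11.2 in the pools of batch 6. Among the ATP synthase genes called was atp5mea, with signals down to 36.4 in ethanol pools and 24.0 in control pools. With eBayes run without a trend, 6 of the 87 genes (6.90%) were called, against 8.14% of all probe sets, and with no moderation 6, against 6.20%. A share clearly above that of all probe sets was therefore not seen in the fits without the trend. Without batch 4, 19 genes were called (21.8%, against 17.1% of all probe sets), and with median centring 24 (27.6%, against 21.4%). At a signal minimum of 400, which leaves brighter probe sets on both sides, 30 of 82 genes were called (36.6%, against 31.1%). The gap was thus smaller there than in the main fit.

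Of the 30 genes called, 14 had their highest level in batch 2 and 9 in batch 6 (46.7% and 30.0%), against 25.2% and 15.0% of the 2058 probe sets called on the whole array. The lowest level was in batch 4 for 18 and in batch 3 for 7 (60.0% and 23.3%), against 28.8% and 11.8% of those probe sets. Relative to the mean over batches, the median level of the 87 genes was -0.07, 0.16, -0.11, -0.18, 0.02, 0.13 and 0.10 on the log2 scale in batches 1, 2, 3, 4, 5, 6 and 8, against -0.02 to 0.05 for all probe sets. A level above the mean over batches was found for 71 of the 87 genes in batch 2 (81.6%, against 56.2% of all probe sets), for 72 in batch 6 (82.8%, against 54.1%) and for 16 in batch 4 (18.4%, against 47.0%).

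The largest batch F values were those of uqcrc2a (10.5, adjusted p = 0.00112), atp5pd, a subunit of the peripheral stalk (9.05, adjusted p = 0.00234), and atp5l, the g subunit in the membrane (8.56, adjusted p = 0.00312), from limma. The mean level of uqcrc2a lay between -0.61 in batch 1 and 0.56 in batch 2, that of atp5pd between -0.49 in batch 4 and 0.50 in batch 2, and that of atp5l between -0.58 in batch 4 and 0.52 in batch 6. Beside this, the ethanol change of atp5l was -0.17 (SE 0.10, adjusted p = 0.477) and that of atp5pd was -0.10 (SE 0.09, adjusted p = 0.671).

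**Figure D4:**
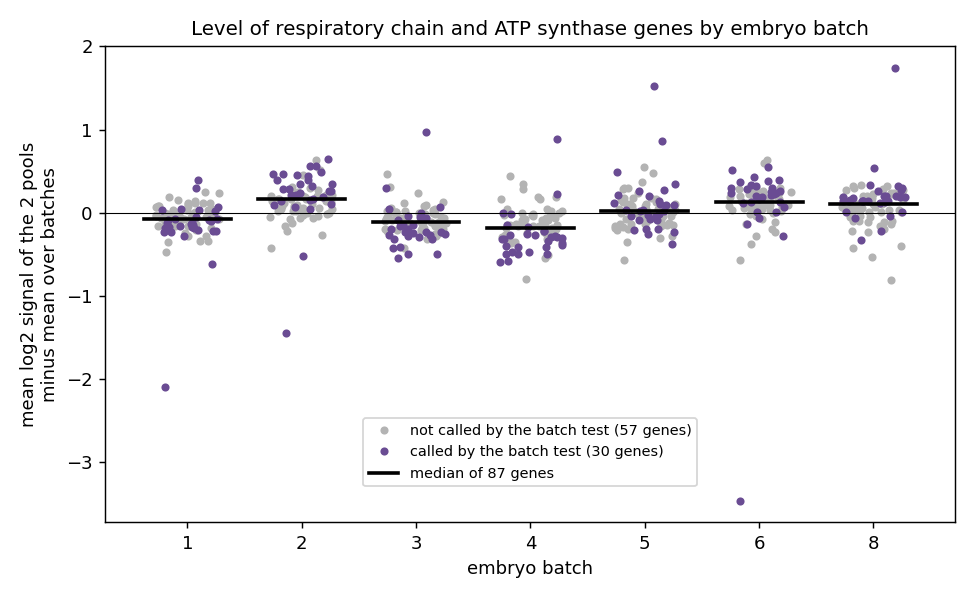
Mean log2 signal of the 2 pools of each embryo batch minus the mean over the 7 batches (y axis), for the 87 tested genes, with the 30 genes called by the batch test in purple, the other 57 in grey and the median of all 87 as a bar. The bars are highest in batches 2 and 6 (0.16 and 0.13) and lowest in batch 4 (-0.18); the single point near the bottom of batch 6 is ndufaf8.

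Calls were also made among the genes that surround the chain. Between complexes III and IV, electrons travel on cytochrome c, which is not a member by symbol. The cytochrome c gene cycsb fell, with 13504, 14304 and 17350 at the lowest, median and highest in ethanol pools, against 15591, 17836 and 21173 in control pools. It was lower in the ethanol pool of all 7 pairs, by 0.04 in pair 6 to 0.61 in pair 3, and the ranges overlapped. The change was -0.30 (SE 0.07, adjusted p = 0.0344, limma), and the adjusted p was 0.111 without pair 3, in a range of 0.0235 to 0.290 over 18 alternatives. It was the single gene called among 15 tested electron carrier and coenzyme Q synthesis genes (6.67%, against 4.36% of all probe sets in either direction), whose median change was 0.02.

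In the TCA cycle, 1 of 20 tested genes rose (5%, against 2.36% of all probe sets) and 0 fell, with a median of -0.06. This was idh2, the mitochondrial NADP-dependent isocitrate dehydrogenase, at 4632, 5539 and 8659 in ethanol pools, against 3898, 4891 and 5400 in control pools (lowest, median and highest). The ethanol pool was higher in all 7 pairs and the change was 0.34 (SE 0.10, adjusted p = 0.0654, limma), but without pair 2, 3, 6 or 8 the adjusted p was 0.190, 0.182, 0.148 or 0.129, in a range of 0.0387 to 0.515 over the alternatives. Glycolysis had 1 gene of 16 that rose (6.25%, against 2.36% of all probe sets), 0 that fell, and a median of 0.22. This was gapdhs, at 0.94 (SE 0.24, adjusted p = 0.0422, limma). Its mean signal was 377 (SD 111) in ethanol pools and 204 (SD 76.5) in control pools, the latter close to the signal minimum. The call was lost without pair 2 (adjusted p = 0.119), with no block (0.360) and with no moderation (0.135).

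Among 78 tested genes of the mitochondrial ribosome and protein import, 5 rose (6.41%, against 2.36% of all probe sets) and 0 fell, with a median of 0.02. All 5 encode proteins of the large ribosomal subunit, but the 78 genes were not counted by ribosomal subunit. The mitochondrial ribosome makes the chain subunits that mitochondrial DNA encodes. The change of mrpl32 was 0.77 (SE 0.11, adjusted p = 0.000413, limma), with means of 1962 ± 381 in ethanol pools and 1144 ± 206 in control pools (SD, n = 7 each), and it was higher in all 7 pairs and called under all 18 alternatives. Those of mrpl52 and mrpl48 were 0.46 (SE 0.13, adjusted p = 0.0652) and 0.45 (SE 0.14, adjusted p = 0.0906), in limma, and each missed the threshold with some pairs left out, at adjusted p values of up to 0.184 for mrpl52 (without pair 8, and also without 3, 5 or 6) and 0.228 for mrpl48 (without pair 8, and also without 2, 3, 4, 5 or 6).

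Of 20 mitochondrial carrier and channel genes, 2 rose (10%, against the same 2.36%) and 0 fell, with a median of -0.02. They were vdac1, the channel of the outer membrane, at 0.73 (SE 0.09, adjusted p = 0.000156, limma), with pair differences from 0.17 in pair 1 to 1.03 in pair 2, and slc25a32a, a folate or flavin carrier (0.56, SE 0.14, adjusted p = 0.0423, but 0.106, 0.124 and 0.107 without pair 3, 5 or 8, limma). No gene was called in either direction among 15 other assembly factors of the chain (median 0.20), against 4.36% of all probe sets. The same held for 9 genes of mitochondrial biogenesis and genome maintenance (median 0.06) and 16 of fission, fusion and inner membrane shape (median 0.06). An unadjusted p under 0.05 in limma was found for 3, 2 and 0 genes of these lists (20%, 22.2% and 0%), against 15.0% of all probe sets. These lists were not tested as groups.

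**Figure D5:**
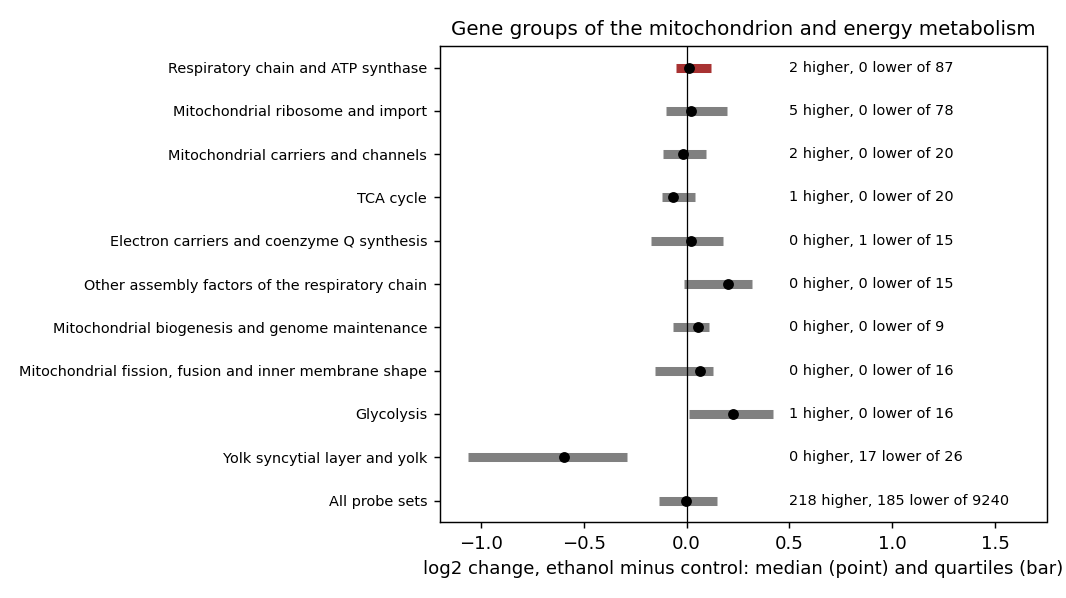
Median (point) and quartiles (bar) of the log2 change, ethanol minus control, in the respiratory chain and ATP synthase genes (red), in other gene lists of the mitochondrion, energy metabolism and yolk, and in all 9240 probe sets, with the number of genes called in each direction. The bar of the chain runs from -0.05 to 0.12, and the bar of the yolk list lies below 0, with a median of -0.60.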

How the data were processed

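The deposited values are linear intensity signals from MAS5, with 1 value for each probe set of a 1-colour 3′ expression array; per the labels and the study's methods, the authors made them from biotin-labelled total RNA and scaled each array. Presence calls and scanner files were not used here. The 115 control probe sets were left out, and of the other 15502, 10795 had 1 gene symbol, 135 several and 4572 none in the platform annotation. No symbol of a member needed an update. The log2 of the signal, with no offset, was modelled on treatment plus a fixed block for batch (limma 3.58.1 under R 4.3.3), and variances were moderated by eBayes along a trend with the mean; the fit had 6 residual degrees of freedom and 12.7 prior ones. This stands in for the 2-way ANOVA of the methods. MAS5 scaling fixes the trimmed mean of an array, so a shift shared by most genes cannot be seen, and low signals are noisy on the log scale.

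Replicate numbers pair the pools: deviations of same-numbered pools from their treatment means correlated at 0.112 to 0.378 over tested probe sets, above 0.1 in all 7 pairs, although pair 1 had a higher r of 0.165 with another number. Genes named with values were those called, the largest changes in each direction per complex, the 3 largest batch F values and up to 3 called genes of each other mitochondrial or metabolic list; those with an unadjusted p under 0.05, the electron path subunits and duplicates were named after their values were seen. The members and lists were chosen with earlier results of these data known. The fit was also run on simulated data, with independent noise and added changes larger than those of ndufa3 and ndufab1b. That run does not cover changes of their size, nor genes that vary together. Alternatives were other signal minimums (100, 400 or none), quantile normalization (in limma), median centring, 100 added before the log2, no block or a random block (statmod 1.5.0), no trend, no moderation, an adjusted p of 0.05, every probe set of a member, and each pair left out.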

Additional observations from a re-analysis of the deposited data

Results flagged for a closer look

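In 2 of the 34 groups of 7 arrays examined, 1 array stood further from the others than Dixon's 95% limit allows. For genes picked without regard to their values, chance flags about 1 group in 20. The 17 genes examined were picked for calls, large changes or large batch F values, so that this rate need not hold for them. The ethanol pool of batch 6 had a signal of 894 for ndufaf6, while the next highest ethanol pool had 555. The control pool of batch 1 had a signal of 944 for sdha, while the next lowest control pool had 1286.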

How the results depend on the processing

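The count of probe sets called, 403, was 28 with no replicate block, 177 with a random replicate block, 43 without a trend, 45 with no moderation, 215 at an adjusted p of 0.05 and 209 to 483 with a pair left out. The count of respiratory chain and ATP synthase genes called higher, 2, was 1 with median centring, 0 with no replicate block, a random block, no trend, no moderation or the stricter threshold, and 0 to 3 with a pair left out (0 without pair 3, 6 or 8, 1 without pair 4 or 5, 3 without pair 1 or 2). The count called lower was 0 under all settings run. Their median change stayed between -0.01 and 0.04. The count called by the batch test, 30, was 24 with median centring, 6 without a trend, 6 with no moderation and 19 to 34 with a pair left out (19 without pair 4). With a pair left out, the change of atp5mea ran from -0.60 to 0.0164 (above 0 without pair 2), that of ndufaf1 from -0.26 to 0.00997 and that of cox8a from -0.11 to 0.0118 (both above 0 without pair 4). Without pair 1, ndufs5 was also called (0.29, adjusted p = 0.0977), and without pair 2 ndufab1a (0.41, adjusted p = 0.0403). The alternatives for genes of other lists were added after seeing the data, and of those 8 genes mrpl32 passed under all 18 and vdac1 under 17. The causes were not tested. A fit with a pair left out also has fewer degrees of freedom, and the part of this in the counts was not tested. Precision is limited by the 7 pairs and, for dim probe sets such as ndufaf8, atp5mea and cox6b1, by signals near the minimum.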
